A study of Mus musculus with 4 samples.

Results

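The transfer RNAs for glycine, glutamate, aspartate, valine, lysine and histidine were followed in cells of the mouse line RAW264.7 and in the extracellular vesicles that the cells released. A feature of the deposited table was counted as a member when its name held tRNA and 1 of these 6 amino acids, which gave 53 tRNA genes of 239 in the table and of 141239 features in all. They comprised 10 genes for Gly, 6 for Glu, 4 for Asp, 13 for Val, 17 for Lys and 3 for His. Names give the amino acid, the anticodon, a family number and a copy number, and the copy number is 1 for each member. A member is called a gene here, but it may stand for several gene copies of 1 family.

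RAW264.7 is a macrophage-like line, and all 4 groups carried a short hairpin RNA induced by doxycycline at 1 µg per mL. The groups were vesicles labelled shDis3l2, vesicles labelled shNS, cells labelled shDis3l2 and cells labelled shNS, where shDis3l2 is named for Dis3l2, an exonuclease that degrades RNAs with oligouridine tails, and shNS is the hairpin it is set against, whose abbreviation the labels do not spell out. After 3 days of doxycycline the medium was changed to one with serum depleted of vesicles, with doxycycline kept in it, and vesicles and cells were taken 24 h later. Vesicles were sedimented, separated on a sucrose gradient and treated with 20 U of micrococcal nuclease, and small RNA libraries were read for 50 nt. The sources used here do not say whether each line was 1 clone or a pool. Each group is 1 library, so a difference between groups has no replicate spread to set it against, and the intervals below cover counting error only.

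A tRNA carries its amino acid to the ribosome, where 3 bases of its anticodon loop read the codon. Stress-activated ribonucleases such as angiogenin cleave tRNAs in that loop into 5′ and 3′ fragments, and fragments from the glycine, glutamate, valine, lysine, histidine and aspartate tRNAs are known as abundant small RNAs in vesicles and serum. A count in these data belongs to a tRNA gene and does not tell a fragment from a whole tRNA or show which end of the molecule was read.

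A nuclear and a mitochondrial tRNA that read valine codons are shown because the results turn on the contrast between nuclear and mitochondrial tRNAs of the same amino acids. The nuclear gene n-TVcac9 lies at chr13:23446142-23446214 on the minus strand, and its sequence was read from RefSeq's promoter table (GRCm38.p6). The mitochondrial gene mt-Tv lies at chrM:1025-1093 on the plus strand (GRCm38), with its sequence from the GENCODE M21 transcripts. Capitals mark the anticodon, at positions 34 to 36 of the first sequence and 33 to 35 of the second, counted from the 5′ end of the gene.
n-TVcac9: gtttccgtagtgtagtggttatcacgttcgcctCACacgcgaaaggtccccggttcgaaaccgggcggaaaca
mt-Tv: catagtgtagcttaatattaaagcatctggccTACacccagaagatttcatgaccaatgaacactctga
The nuclear gene is 73 bases long and the mitochondrial one 69 bases. Which of the Val-CAC genes of the table n-TVcac9 stands for was not worked out, because the table and RefSeq number the genes differently.

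The libraries held 17612856 to 19741041 estimated counts. Counts at Dis3l2 were not lower with the label shDis3l2. Cells had 13232 counts in the library labelled shDis3l2 against 41 in the library labelled shNS. Vesicles labelled shDis3l2 had 1894 counts against 1713 in vesicles labelled shNS. Such small RNA counts need not follow the level of the mRNA. Whether they came from the mRNA or from another RNA that matches the gene was not tested. Groups are therefore named by their labels throughout, and no direction between the labels is read as an effect of lower Dis3l2. The RNA classes shifted strongly between compartments: tRNAs of any kind took 35.4% and 38.5% of the counts in vesicles labelled shDis3l2 and shNS, against 5.18% and 4.04% in cells with those labels, while miRNA hairpins took 10.5% and 19.1% in vesicles against 61.2% and 68.3% in cells. Levels are given as CPM, the usual scaling of a count to the size of its library, and a floor of 3 counts stood at 0.152 to 0.170 CPM. The 123 RefSeq genes for these amino acids are 71 to 74 bases long, which makes CPM nearly comparable per length. Each level is a share of its library, so that more tRNA cannot be told apart from less of other RNA, nor, in cells, fewer expressing cells from less RNA per cell.

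Most tRNA counts of each library belonged to these 6 amino acids. Their summed level was 29.1% of all counts in vesicles labelled shDis3l2 and 30.9% in vesicles labelled shNS, against 4.19% in cells labelled shDis3l2 and 3.23% in cells labelled shNS. Within the tRNA counts they held 82.2% and 80.1% in vesicles and 80.9% and 79.9% in cells. Leu, Ser and SeC tRNAs together, long tRNAs with an extended variable arm, held 3.86% and 3.34% of tRNA counts in vesicles against 2.70% and 2.29% in cells. Of the 10 most abundant tRNA genes of each library, 9 belonged to the 6 amino acids, and the 5 most abundant members held 55.8% and 65.3% of the members' counts in vesicles and 60.0% and 61.2% in cells.

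On the scale of all counts, vesicles held 6.94-fold more of these tRNAs than cells under the label shDis3l2 (log2 ratio 2.80) and 9.57-fold more under shNS (log2 ratio 3.26), where the median of all measured features was 3.03 and 2.73. Under shDis3l2 the sum thus lay below the median feature, and under shNS above it. Scaled by edgeR's TMM the log2 ratios were 0.43 and 1.14, and scaled by DESeq2 they were 0.43 and 1.12. They came to 5.34 and 5.09 on the miRNA scale and to 0.022 and 0.0040 on all tRNA counts. The members made up most tRNA counts of each library, so on that last scale, here and below, their sum is set mostly against itself. All 12 anticodons with at least 100 counts over the paired libraries had a log2 ratio above 0 under both labels when levels were scaled to all counts, and on the scale of all tRNA counts 8 of 12 did so under each label. The remaining anticodon, Gly-ACC, had 60 and 42 counts in vesicles labelled shDis3l2 and shNS against 3 and 4 in cells, too few to be ranked. Order among anticodons was alike under both labels, with a Spearman rho of 0.951 between the 12 vesicle-over-cell ratios of shDis3l2 and those of shNS, 2 comparisons with no library in common but with the same genes and the same total as scale. Against the other anticodons of the table, whose median log2 ratio was 2.29 over 35 anticodons for shDis3l2 and 2.80 for shNS, the 12 anticodons had medians of 3.54 and 3.72, with ranges inside those of the others.

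**Figure D1:**
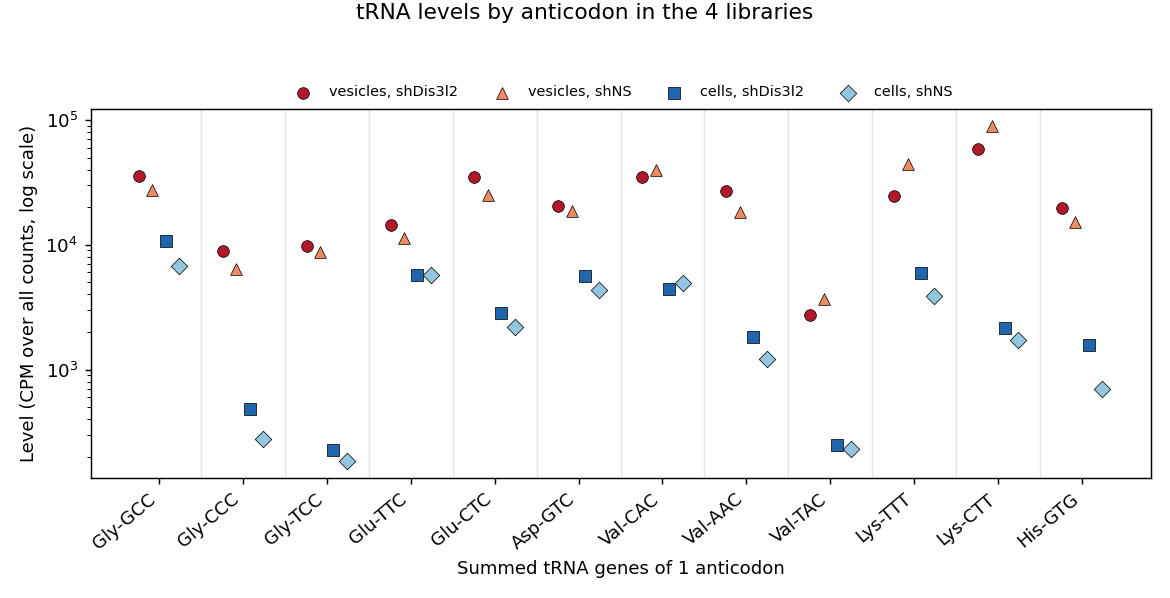
Levels of 12 anticodons in the 4 libraries, as CPM over all counts on a log axis, 1 point per library and no error bar because there is 1 library per group. Both vesicle points lie above both cell points for each anticodon, with the widest gap for Gly-TCC and Lys-CTT and the narrowest for Glu-TTC.

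Glycine tRNAs split by anticodon. Gly-GCC, the most abundant anticodon of any tRNA in both cell libraries, stood at 35532 CPM in vesicles labelled shDis3l2 and 27370 in vesicles labelled shNS, against 10807 and 6763 CPM in cells with those labels. That is 3.29-fold and 4.05-fold higher in vesicles on the scale of all counts, and below cells on the edgeR TMM, DESeq2 and tRNA-total scales under both labels. Gly-TCC, a minor anticodon of cells, stood at 9770 and 8691 CPM in vesicles labelled shDis3l2 and shNS, against 225 and 186 CPM in cells. Its ratios of 43.4-fold (95% interval 42.1 to 44.8) and 46.8-fold (45.3 to 48.3) were positive on each of 5 scales and ranked 2 under shDis3l2 and 5 under shNS among 47 anticodons. Gly-CCC, read mostly from tRNA-Gly-CCC-1-1, stood between them, at 8905 and 6360 CPM in vesicles against 483 and 279 CPM in cells, 18.4-fold and 22.8-fold higher in vesicles and higher on all 5 scales. Its minor gene tRNA-Gly-CCC-2-1 had 128 and 34 counts in vesicles against 1 and 4 in cells, a ratio under shDis3l2 of 89.6-fold with a counting interval of 23.6 to 5327.

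Within Gly-GCC the genes did not move together. The gene tRNA-Gly-GCC-2-1 had 478014 and 386436 counts in vesicles labelled shDis3l2 and shNS, against 121389 and 66704 in cells, and tRNA-Gly-GCC-1-1 had 146904 and 110697 against 65687 and 54344. Both were higher in vesicles. The pair tRNA-Gly-GCC-3-1 and tRNA-Gly-GCC-4-1 went the other way: the first had 482 and 238 counts in vesicles against 5526 and 6329 in cells, 11.0-fold and 24.5-fold lower in vesicles. The second had 425 and 489 counts against 6416 and 6135, 14.4-fold and 11.5-fold lower. On the scale of all counts they were the only 2 measured members at least 2-fold lower in vesicles, under both labels. In vesicles they made up 0.0770% and 0.0679% of Gly-GCC under shDis3l2 and 0.0479% and 0.0982% under shNS, and in cells 2.78% and 3.22% under shDis3l2 and 4.74% and 4.59% under shNS. Genes of 1 anticodon are near-identical in sequence, and no source used here says how the authors' counting divided shared reads among them, so single-gene values are uncertain, and how far this touches the sums by anticodon was not tested.

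Glutamate tRNAs changed which anticodon led. Glu-CTC, held almost wholly by tRNA-Glu-CTC-1-1, stood at 35128 CPM in vesicles labelled shDis3l2 and 25158 in vesicles labelled shNS, against 2820 and 2177 CPM in cells, 12.5-fold and 11.6-fold higher in vesicles on the scale of all counts and above 0 on the other 4 scales. Glu-TTC stood at 14370 and 11271 CPM in vesicles, against 5731 and 5776 CPM in cells. Those ratios, 2.51-fold and 1.95-fold on the scale of all counts, were the smallest of the 12 anticodons, and on the TMM, DESeq2 and tRNA-total scales Glu-TTC was lower in vesicles. Among 51 anticodons Glu-TTC ranked 10 by counts in both vesicle libraries, against 3 in cells labelled shDis3l2 and 2 in cells labelled shNS. A minor gene, tRNA-Glu-TTC-3-1, had 12762 and 5719 counts in vesicles against 309 and 636 in cells, and held 5.04% and 2.79% of its anticodon in vesicles against 0.293% and 0.558% in cells.

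Aspartate has a single anticodon in the table. Asp-GTC stood at 20561 and 18758 CPM in vesicles labelled shDis3l2 and shNS, against 5639 and 4349 CPM in cells, 3.65-fold and 4.31-fold higher in vesicles on the scale of all counts. It was lower in vesicles on the TMM, DESeq2 and tRNA-total scales, except under shNS with TMM. There the log2 ratio of -0.007 lay within its counting interval of no difference. Its makeup was nearly constant: tRNA-Asp-GTC-1-1 held 90.8% and 90.7% of it in vesicles and 87.5% and 87.2% in cells.

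Valine tRNAs held 18.2% and 16.0% of tRNA counts in vesicles labelled shDis3l2 and shNS, against 12.6% and 15.9% in cells. Val-CAC stood at 34767 and 39838 CPM in vesicles labelled shDis3l2 and shNS, against 4429 and 4960 CPM in cells, 7.85-fold and 8.03-fold higher in vesicles on the scale of all counts, with a ratio below 0 on the tRNA-total scale for shNS. Val-AAC stood at 26799 and 18200 CPM in vesicles, against 1840 and 1212 CPM in cells, 14.6-fold and 15.0-fold higher and higher on all 5 scales. Val-TAC, the rarest of the 3, stood at 2714 and 3647 CPM in vesicles against 250 and 230 CPM in cells, 10.9-fold and 15.8-fold higher and also higher on all 5 scales.

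The gene tRNA-Val-AAC-3-1 had 69319 counts in vesicles labelled shDis3l2 and 21664 in vesicles labelled shNS, against 0 in both cell libraries. Taken against a floor of 3 counts per library it was at least 24161-fold higher in vesicles under shDis3l2 and at least 7837-fold higher under shNS. It supplied 14.7% and 6.54% of Val-AAC in vesicles. Likewise tRNA-Val-CAC-1-1 had 1674 and 5275 counts in vesicles, against 2 in cells labelled shDis3l2 and 0 in cells labelled shNS. Under shDis3l2 its ratio was 700-fold with a counting interval of 242 to 7233. Under shNS it was at least 1908-fold higher in vesicles. The lower bounds of both genes cover counting error only, and the counts are estimates. How reads shared with other genes of the same anticodon were divided is not given. Whether the 0 counts come from that division was not tested. Other Val-AAC genes shifted more gently, so that tRNA-Val-AAC-5-1 led in vesicles with 51.2% and 56.5% of the anticodon against 28.6% and 23.9% in cells, where tRNA-Val-AAC-1-1 led with 56.3% and 57.6%. In Val-CAC, tRNA-Val-CAC-2-1 led in all 4 libraries, with 73.6% and 75.0% in vesicles and 92.5% and 93.9% in cells.

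Lysine tRNAs were the most abundant isotype of both vesicle libraries. They held 23.4% of tRNA counts in vesicles labelled shDis3l2 and 34.8% in vesicles labelled shNS, against 15.7% and 13.9% in cells, where Lys ranked 3 with shDis3l2 and 4 with shNS among 23 isotypes. Lys-CTT stood at 58351 and 89389 CPM in vesicles, against 2146 and 1719 CPM in cells, 27.2-fold and 52.0-fold higher in vesicles and higher on all 5 scales. It was the most abundant of 51 anticodons in both vesicle libraries and ranked 7 in both cell libraries. Its main gene tRNA-Lys-CTT-3-1 was the top tRNA gene among the members in vesicles, with 886371 and 1463735 counts, against 28552 and 26076 counts in cells. Lys-TTT stood at 24367 and 44733 CPM in vesicles, against 5988 and 3905 CPM in cells, 4.07-fold higher under shDis3l2, where the ratio was below 0 on the TMM, DESeq2 and tRNA-total scales, and 11.5-fold higher under shNS, where it was above 0 on all 5.

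Histidine had the smallest share of tRNA counts of the 6 isotypes, 5.61% and 3.93% in vesicles labelled shDis3l2 and shNS, against 3.04% and 1.73% in cells. His-GTG stood at 19879 and 15127 CPM in vesicles, against 1576 and 700 CPM in cells, 12.6-fold and 21.6-fold higher in vesicles and higher on all 5 scales. One gene, tRNA-His-GTG-2-1, carried almost all of it, with 350053 and 275100 counts in vesicles against 29010 and 13812 in cells.

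**Figure D2:**
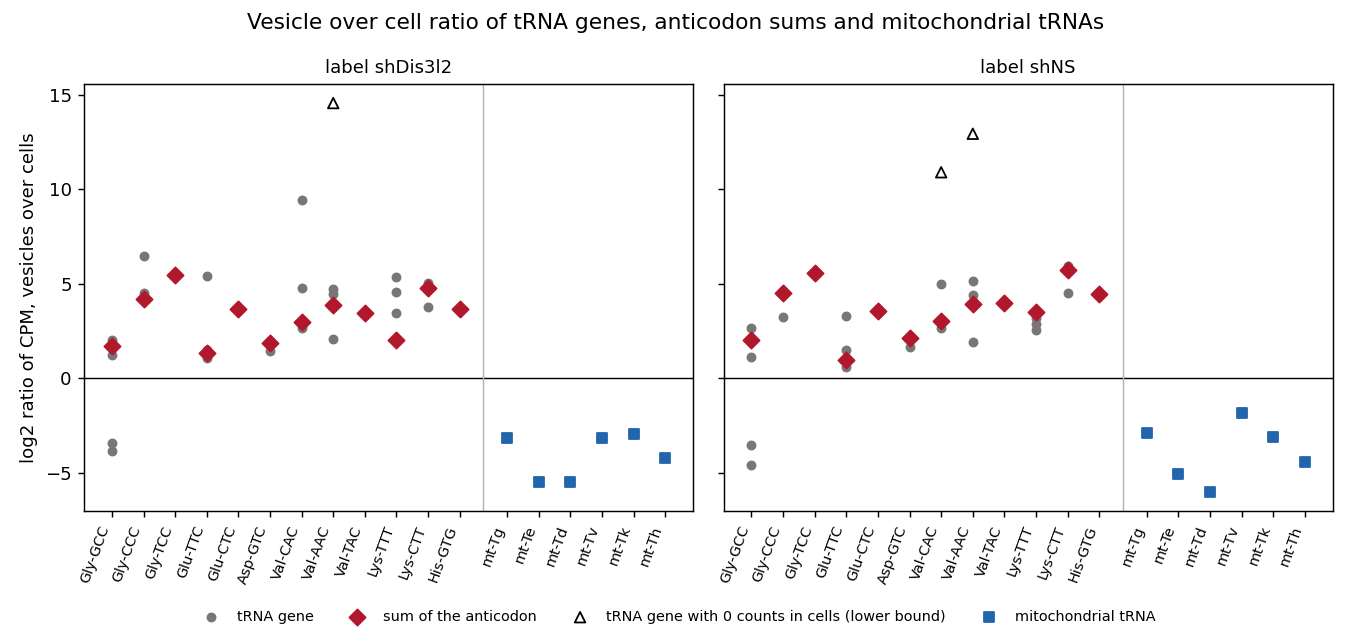
The log2 ratio of CPM, vesicles over cells, for each measured tRNA gene (grey), each anticodon sum (red) and the mitochondrial tRNAs of the same amino acids (blue), with the label shDis3l2 on the left and shNS on the right. Anticodon sums lie above 0 and mitochondrial tRNAs below it. The 2 grey points under 0 are tRNA-Gly-GCC-3-1 and tRNA-Gly-GCC-4-1. Open triangles are lower bounds, for counting error only, for genes with 0 counts in cells.

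Counted gene by gene, 28 of the 30 members with at least 100 counts over the 2 libraries were at least 2-fold higher in vesicles under shDis3l2 with a 95% interval that excluded 1, and 2 were at least 2-fold lower. Over all 6876 features tested the same way, 77.3% were higher and 16.1% lower, so that most measured features were higher in vesicles on this scale. Under shNS, 26 of 29 members were higher and 2 lower, against 74.5% higher and 17% lower of 6129 features. With TMM factors 19 members were higher and 4 lower under shDis3l2, and 17 higher and 3 lower under shNS. On the tRNA total 14 were higher and 6 lower under shDis3l2, and 10 higher and 8 lower under shNS. Shares over all features were not counted on those scales. The median log2 ratio of all features was 0.67 and 0.62 with TMM, and 0.25 and -0.52 on the tRNA total. On the scale of all counts the median log2 ratio of members was 3.71 under shDis3l2 and 3.29 under shNS. It was 3.03 and 2.73 over all features, and 3.00 and 3.17 over the other tRNA genes. These medians did not move when genes at 0 in 1 library were set at their bound. Of the other tRNA genes, 95 of 121 and 101 of 118 were higher. No count here speaks for all 53 members, since 20 of them had fewer than 100 counts over the 4 libraries and 3 of those, tRNA-Gly-CCC-4-1, tRNA-Val-AAC-6-1 and tRNA-Val-CAC-4-1, had none. The other 17 genes had at most 50 counts in a vesicle library and at most 11 in a cell library, and 9 of them were Lys-CTT genes.

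Mitochondrial tRNAs for the same amino acids went the other way. The 6 genes mt-Tg, mt-Te, mt-Td, mt-Tv, mt-Tk and mt-Th, which serve translation inside mitochondria, summed to 66.7 CPM in vesicles labelled shDis3l2 and 73.8 in vesicles labelled shNS, against 1327 and 1079 CPM in cells. Their sum was 19.9-fold lower in vesicles under shDis3l2 (log2 ratio -4.31) and 14.6-fold lower under shNS (log2 ratio -3.87). All 6 were at least 2-fold lower under both labels on the scale of all counts; on the miRNA scale mt-Tv under shNS had a log2 ratio of 0.02 and the others stayed below 0. The glutamate tRNA mt-Te had 186 and 202 counts in vesicles against 8660 and 7338 in cells, and the aspartate tRNA mt-Td had 52 and 38 against 2516 and 2703. The valine tRNA mt-Tv, shown above beside its nuclear counterpart, moved least under shNS, with 317 and 635 counts in vesicles against 2959 and 2434 in cells.

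Anticodon shares within an amino acid do not depend on any scale. Glu-CTC made up 71.0% and 69.1% of Glu counts in vesicles labelled shDis3l2 and shNS, against 33.0% and 27.4% in cells, and the ratio of Glu-CTC to Glu-TTC was 4.97-fold and 5.92-fold higher in vesicles. Lys-CTT made up 70.5% and 66.6% of Lys counts in vesicles, against 26.4% and 30.6% in cells, and its ratio to Lys-TTT was 6.68-fold and 4.54-fold higher. In both amino acids the anticodon that starts with C was the larger in vesicles and the smaller in cells. Such an anticodon pairs with a codon ending in G. Gly-CCC also took a larger share in vesicles, 16.4% and 15.0% against 4.20% and 3.86% in cells. Val-CAC took a smaller one, 54.1% and 64.6% against 67.9% and 77.5% in cells. Gly-GCC made up 65.5% and 64.5% of Gly counts in vesicles, against 93.8% and 93.6% in cells, and the ratio of Gly-TCC to Gly-GCC was 13.2-fold and 11.6-fold higher in vesicles. For valine the shift was smaller, with Val-AAC at 41.7% and 29.5% in vesicles against 28.2% and 18.9% in cells, a ratio to Val-CAC that was 1.86-fold and 1.87-fold higher in vesicles.

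**Figure D3:**
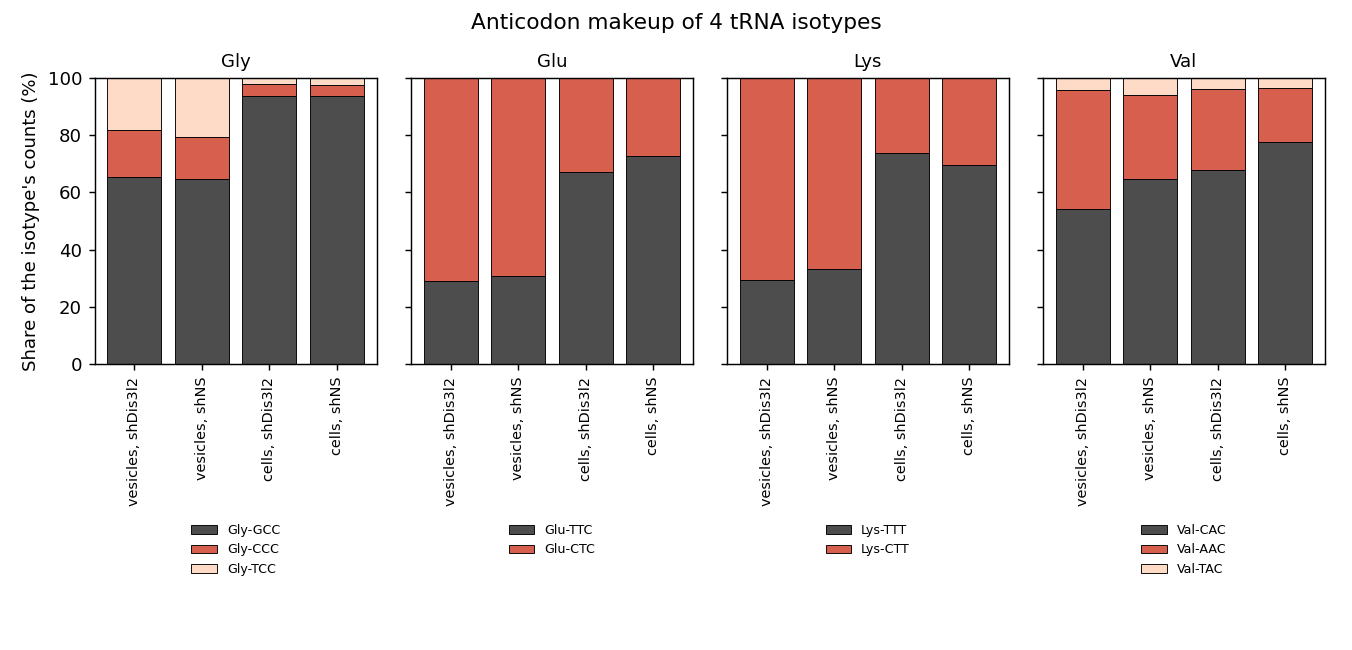
Share of each anticodon in the counts of its amino acid, in percent, for Gly, Glu, Lys and Val, with 1 bar per library that sums to 100. The main anticodon of cells, Gly-GCC, Glu-TTC or Lys-TTT, takes a smaller share in both vesicle libraries.

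**Figure D4:**
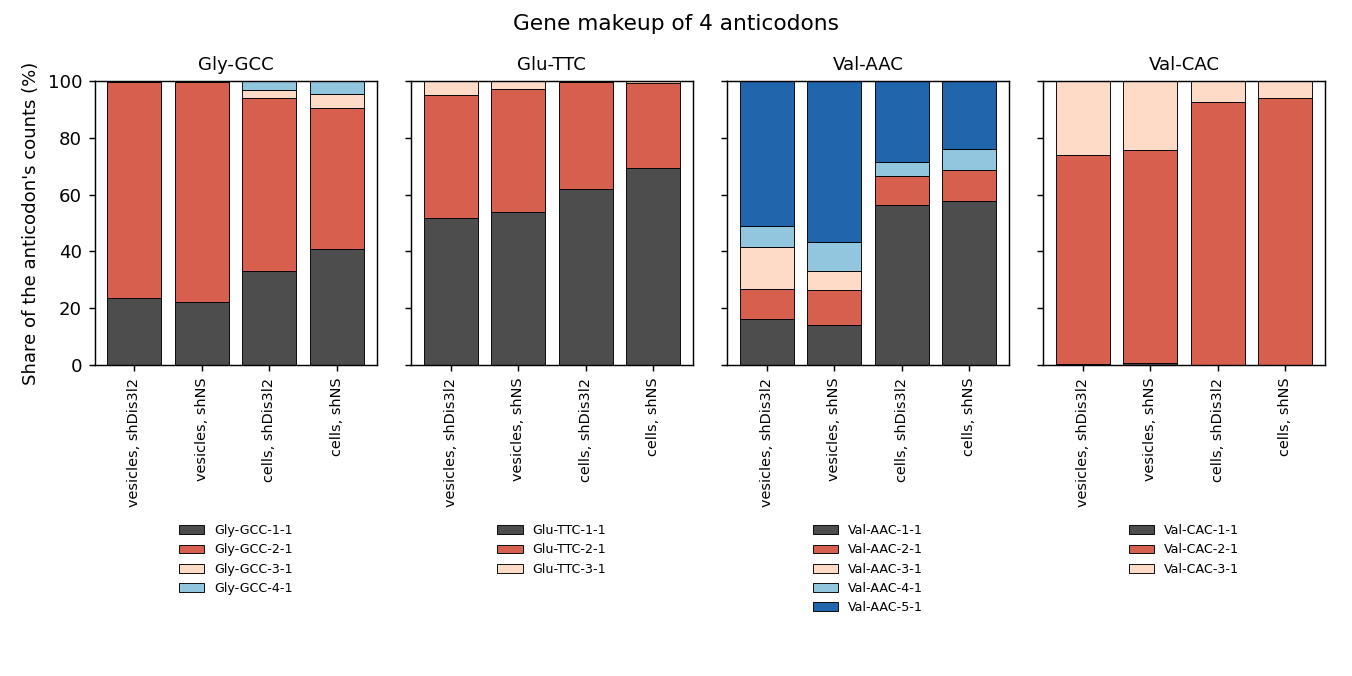
Share of single genes in the counts of 4 anticodons, in percent, 1 bar per library, for genes with at least 0.5% of the anticodon in some library. tRNA-Val-AAC-3-1 is present in vesicle bars and absent from cell bars, and tRNA-Gly-GCC-3-1 and tRNA-Gly-GCC-4-1 are visible in cell bars only.

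Between the hairpin labels, on the scale of all counts, the largest difference of an anticodon was 2.25-fold in cells (His-GTG) and 1.84-fold in vesicles (Lys-TTT), and on the miRNA scale Val-AAC in vesicles had a log2 ratio of 1.42. In cells, the 6 isotypes together were 1.30-fold higher with the label shDis3l2 than with shNS (log2 ratio 0.38). His-GTG differed most, at 1576 CPM in cells labelled shDis3l2 against 700 CPM in cells labelled shNS, 2.25-fold higher (95% log2 interval 1.14 to 1.20), with a log2 ratio between 0.81 and 1.33 over the 5 scales. Gly-CCC was 1.73-fold, Gly-GCC 1.60-fold, Lys-TTT 1.53-fold and Val-AAC 1.52-fold higher with shDis3l2, each above 0 on all 5 scales. Glu-TTC stood at 5731 CPM in cells labelled shDis3l2 against 5776 CPM in cells labelled shNS, within its counting interval of no difference. Val-CAC was 1.12-fold lower with shDis3l2, and below 0 on all 5 scales. On the miRNA scale its log2 ratio of -0.005 lay within its counting interval of no difference. Of 26 members with at least 100 counts, 1 was at least 2-fold higher, tRNA-His-GTG-2-1 with 29010 counts against 13812, and 1 was lower, tRNA-Lys-TTT-5-1 with 66 counts against 177. Over all 2740 features tested, 18.2% were higher and 7.23% lower. With TMM 1 member was higher and 2 lower, on the miRNA scale 4 and 1, and on the tRNA total 0 and 3. Shares over all features were not counted on those scales, where the median log2 ratio of all features was 0.05, 0.27 and -0.24. On the scale of all counts the members' median log2 ratio was 0.30, against 0.12 over all features and 0.21 over the other tRNA genes.

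In vesicles the 6 isotypes summed to nearly the same share under both labels, with a log2 ratio of shDis3l2 over shNS of -0.08 that turned to 0.78 on the miRNA scale and 0.04 on the tRNA-total scale. Beneath that sum, anticodons went both ways. Lys-TTT was 1.84-fold lower in vesicles labelled shDis3l2 than in those labelled shNS (log2 ratio -0.88). It was below 0 on all 5 scales, but only at -0.016 on the miRNA scale. Lys-CTT was 1.53-fold lower (log2 ratio -0.62), with a ratio above 0 on the miRNA scale. Val-CAC and Val-TAC had log2 ratios of -0.20 and -0.43, also above 0 on the miRNA scale alone. Val-AAC was 1.47-fold, Gly-CCC 1.40-fold, Glu-CTC 1.40-fold and His-GTG 1.31-fold higher with shDis3l2, each on all 5 scales. Of 33 members, 5 were at least 2-fold higher with shDis3l2 and 1 lower, against 16.8% higher and 5.59% lower of 8531 features. The 5 were minor genes: tRNA-Gly-CCC-2-1 with 128 counts against 34, tRNA-Val-AAC-3-1 with 69319 against 21664, tRNA-Lys-TTT-2-1 with 3195 against 1072, tRNA-Glu-TTC-3-1 with 12762 against 5719 and tRNA-Gly-GCC-3-1 with 482 against 238. The lower member was tRNA-Val-CAC-1-1, with 1674 counts against 5275. With TMM 3 were higher and 2 lower, and on the miRNA scale 20 higher and 0 lower. Shares over all features were not counted on those scales, where the median log2 ratio of all features was 0.03 and 1.20. On the miRNA scale the median feature was thus itself past 2-fold. On the scale of all counts median log2 ratios were 0.34 for members and 0.34 for all features.

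On the scale of all counts, lysine tRNAs had label ratios of opposite sign in the 2 compartments. This was not particular to lysine, since all tRNAs summed had log2 ratios of -0.12 in vesicles and 0.36 in cells. Outside the 6 isotypes, Ala (-0.32 in vesicles and 1.40 in cells) and Cys (-0.58 and 1.29) were further apart. Gln (0.61 and -0.01) had the higher ratio in vesicles. Lys as a whole was lower with shDis3l2 in vesicles (log2 ratio -0.70) and higher with shDis3l2 in cells (0.53), a difference of -1.23 that ranged from -1.48 to -0.53 over the 5 scales. For Lys-TTT the difference was -1.49 and for Lys-CTT -0.94. On the miRNA scale the opposite signs were lost for Lys as a whole, at 0.16 in vesicles and 0.69 in cells, and for Lys-CTT, at 0.25 in vesicles and 0.48 in cells. Lys-CTT was also below 0 in both on the tRNA total, at -0.50 in vesicles and -0.04 in cells, and its difference was -0.23 on the miRNA scale and -0.45 on the tRNA total. Lys-TTT kept opposite signs on all 5 scales, with a difference between -1.74 and -0.79. On the miRNA scale, however, its log2 ratio in vesicles was -0.016, close to no difference, beside 0.77 in cells. Over single genes, 7 of 33 members had label ratios that differed at least 2-fold between compartments, 6 with the higher ratio in vesicles and 1, tRNA-Lys-TTT-1-1, with the lower. Over all 10911 features tested, 19.8% had the higher ratio in vesicles and 16% the lower. Of 128 other tRNA genes, 16 had the higher ratio in vesicles and 27 the lower. With 1 library in each group this difference was not tested.

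**Figure D5:**
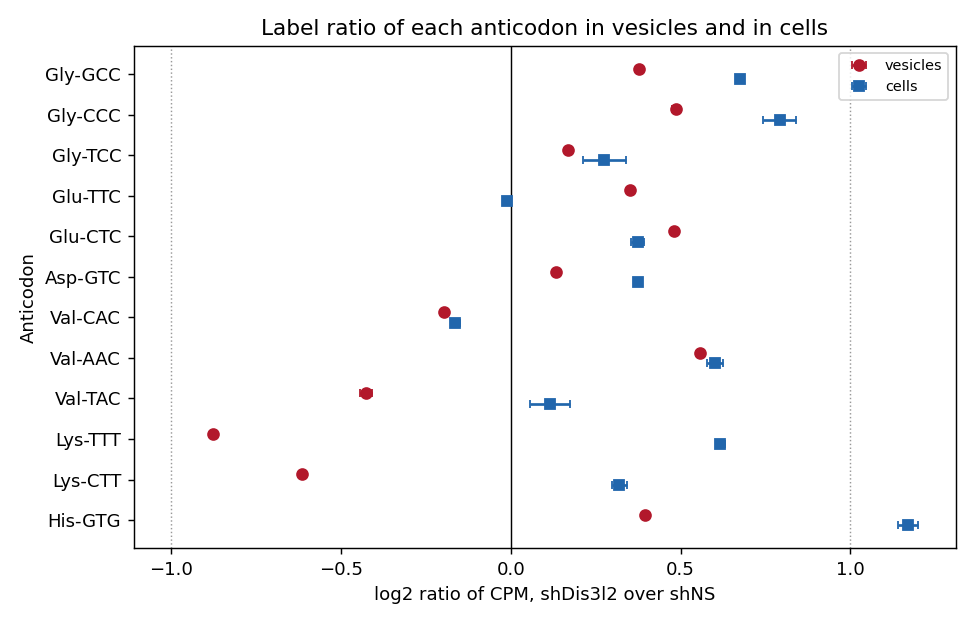
The log2 ratio of CPM, shDis3l2 over shNS, for 12 anticodons, with vesicles as red circles and cells as blue squares; bars are exact 95% intervals for counting error and dotted lines mark 2-fold. Lys-TTT and Lys-CTT lie left of 0 in vesicles and right of it in cells, and His-GTG in cells is past 2-fold.

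A fit of all 4 libraries on compartment and label, had 1 residual degree of freedom. With 1 library per group, that residual is the difference of the label ratios between compartments and not a spread between replicates. By edgeR's quasi-likelihood test with Benjamini-Hochberg adjustment, 0 of 33 members and 0 of 10911 features (0%) differed between vesicles and cells, with a smallest adjusted p of 0.0537. At an unadjusted p under 0.05 there were 31 members, 29 of them higher in vesicles, and 6578 features. The DESeq2 Wald test called 24 of 33 members, 22 higher and 2 lower in vesicles, against 40.5% of features and 78 of 128 other tRNA genes. With a count minimum of 10, edgeR called 20 of 48 members, against 6.09% of 46981 features and 65 of 161 other tRNA genes. For the labels, edgeR called 0 members and 0 features (0%; 0 members and 325 features at an unadjusted p under 0.05), and DESeq2 called 0 members and 3 features (0.0275%).

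Counts at most genes that act on tRNA were low in these small RNA libraries, apart from Dis3l2 with 13232 counts in cells labelled shDis3l2. Ang, which encodes angiogenin, had 0 and 5 counts in vesicles labelled shDis3l2 and shNS, against 8 and 3 in cells. Of 12 nuclease and processing genes, 8 of 9 measured were at least 2-fold higher in vesicles under shDis3l2 and 1, Dis3l2, was lower, and 7 of 9 were higher under shNS; their median log2 ratios of 1.77 and 2.28 lay below the 3.03 and 2.73 of all features. Among them Elac2, whose product trims the 3′ end of tRNA precursors, had 944 and 608 counts in vesicles against 166 and 43 in cells, and was 4.10-fold higher with shDis3l2 than with shNS in cells. Beside Elac2, Dis3l2 was the other of 2 genes higher with shDis3l2 among 5 measured in cells, and in vesicles 1 of 11 was higher and 1 lower. All 5 measured synthetase genes of the 6 that charge these tRNAs were higher in vesicles under both labels, among them Eprs, which charges glutamate and proline tRNAs, with 617 and 949 counts against 66 and 54 in cells. Their median log2 ratios were 3.20 under shDis3l2 and 3.86 under shNS, against 3.03 and 2.73 over all features. Of all features tested, 77.3% and 74.5% were higher in vesicles, so that a high count of such genes is common on this scale. Between labels, 1 of 2 synthetases in cells was higher with shDis3l2 and 0 of 6 in vesicles was at least 2-fold apart.

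Modification enzymes were the third list, with 10 genes. Nsun2, which methylates cytosines of tRNA, had 303 and 265 counts in vesicles labelled shDis3l2 and shNS against 48 and 31 in cells, while Elp3, of the Elongator complex that modifies the wobble uridine, had 198 and 273 against 1267 and 1298. Elp3 was the lower of 3 measured genes under shDis3l2 and of 2 under shNS, the others being higher in vesicles. Of the labels' comparisons, 0 of 1 in cells and 1 of 3 in vesicles, Alkbh1 with 72 counts against 34, was at least 2-fold apart. For mitochondrial tRNAs 0 of 6 in cells and 0 of 4 in vesicles were at least 2-fold apart between labels.

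Macrophage markers were present, with 7 of 8 detected and Mir223 at 0 in all 4 libraries. Their summed level was 10665 and 20531 CPM in vesicles labelled shDis3l2 and shNS, against 65006 and 81035 CPM in cells. Of 6 measured markers, 3 were higher in vesicles under each label: Lyz2, Csf1r and Cd68. The 3 lower were the miRNAs Mir142, Mir155 and Mir146. Between labels 0 of 6 was at least 2-fold apart in cells. In vesicles 1 of 6, Mir142, was lower with shDis3l2, with 121711 counts against 265022. All miRNA hairpins together had 1854288 counts in vesicles labelled shDis3l2 against 3477464 in those labelled shNS. Markers of erythroid cells and serum summed to 43.0 and 57.6 CPM in vesicles against 8.46 and 7.32 CPM in cells. A higher level in vesicles was shared by 77.3% and 74.5% of all features under shDis3l2 and shNS. Mir451a had 157 and 376 counts in vesicles against 3 and 4 in cells, and Mir144 had 266 and 477 against 0 and 5. Hbb-bs had 171 and 67 counts against 5 and 4, while Mir122 differed little, with 163 and 125 against 148 and 132. Of these 6 genes, 3 of 4 measured were higher in vesicles under shDis3l2 and 2 of 3 under shNS, and between labels 0 of 1 was apart in cells and 1 was higher and 1 lower of 4 in vesicles, while Hba-a1 was at 0 in all libraries and Mir486 had 0 and 3 counts in vesicles and 0 in cells. The liver markers Alb and Apoa1 had at most 3 counts in a library. What part RNA from serum had in the tRNA levels was not tested.

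RefSeq (GRCm38.p6) lists 123 nuclear tRNA genes for the 6 amino acids among 430 tRNA genes, on 17 chromosomes, with 22 of them on chromosome 13. Lys-CTT has the most copies, 24, followed by Asp-GTC with 16, Gly-GCC with 14, Glu-CTC with 12, Val-CAC with 11 and His-GTG with 10, and Lys-TTT has 2 in RefSeq. The table itself holds 5 Lys-TTT genes, so the RefSeq list is not a full count of genes for that anticodon. All other anticodons except Gly-ACC had fewer features than RefSeq genes, such as 1 against 7 for Gly-TCC and 4 against 16 for Asp-GTC. Whether such a feature stands for several gene copies was not worked out.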

How the data were processed

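Small RNA was measured in 4 libraries, 1 per group. The deposited values are estimated counts per feature, made by the authors; per the submitters' processing notes the tools were cutadapt, Salmon and Novoalign and the builds GRCm38 and mm10. Versions, UMI collapse and the handling of reads shared by tRNA genes are not given in the sources used here. Of the values above 0, 6.56% were whole within 0.001, and values were rounded to whole numbers.

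Ratios of CPM over all counts used a pseudocount of 0.5 counts and exact conditional (Clopper-Pearson) 95% intervals, which cover counting error only. A feature counted as apart when tested (at least 100 counts over the 2 libraries), at least 2-fold different and with an interval that excludes 1. Differences of label ratios used Wald intervals from the 4 counts. Additive fits of compartment and label used edgeR 4.0.16 (quasi-likelihood) and DESeq2 1.42.0 in R 4.3.3; other steps used Python 3.11.15 with scipy 1.17.1. The counting of features apart and the fits were tested on simulated data. For the fits, few simulated features differed between compartments, while here most did on the scale of all counts. That run therefore does not show how the fits behave on these data. Alternatives were TMM factors, DESeq2 size factors, the miRNA hairpin or tRNA total as scale, other lowest counts for a tested feature (1, 10 or 1000) and 5 as pseudocount.

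The rule for named genes took each anticodon, its leading gene, the 5 most abundant members per library, the 5 largest ratios per direction and measured genes of the lists (mitochondrial tRNAs, nucleases and processing factors, modification enzymes, synthetases, macrophage, erythroid and serum, and liver markers). Members and lists were chosen with earlier results of these data known.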

Additional observations from a re-analysis of the deposited data

Results flagged for a closer look

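For some tRNAs the ratio of shDis3l2 over shNS had opposite signs in vesicles and in cells, with both counting intervals away from 0. With 1 library per group, the differences below were not tested against replicates. As log2 ratios in vesicles minus log2 ratios in cells on the scale of all counts, lysine differed by -1.23 in sum, -0.94 for Lys-CTT and -1.49 for Lys-TTT, and its leading genes by -0.91 for tRNA-Lys-CTT-3-1, -0.73 for tRNA-Lys-CTT-2-1 and -1.51 for tRNA-Lys-TTT-1-1. Over the 5 scales the difference ran from -1.48 to -0.53 for Lys, from -1.18 to -0.23 for Lys-CTT and from -1.74 to -0.79 for Lys-TTT; the signs were alike in both compartments for Lys on the miRNA scale and for Lys-CTT on the miRNA and tRNA-total scales. A minor gene, tRNA-Lys-TTT-2-1, differed the other way, by 2.14, with 3195 and 1072 counts in vesicles labelled shDis3l2 and shNS against 82 and 126 in cells.

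Val-TAC, which has 1 feature in the table, differed by -0.54 (tRNA-Val-TAC-1-1). That difference was 0.16 on the miRNA scale and -0.06 on the tRNA total, with like signs in both compartments on each. Among the others, tRNA-Val-CAC-3-1 differed by -0.23, tRNA-Glu-TTC-1-1 by 0.47, tRNA-Gly-GCC-3-1 by 1.16, tRNA-Gly-CCC-3-1 by 1.30 and tRNA-Glu-TTC-3-1 by 2.14. The last had 12762 and 5719 counts in vesicles labelled shDis3l2 and shNS against 309 and 636 in cells, so its share of Glu-TTC counts was higher with shDis3l2 in vesicles and lower with shDis3l2 in cells. These single-gene differences are on the scale of all counts alone. The other scales shift vesicles and cells by unlike amounts, so the differences and the signs that flagged them can change.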

How the results depend on the processing

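Scaling decided how much higher the tRNAs stood in vesicles. The log2 ratio of vesicles over cells for the 6 isotypes was 2.80 under shDis3l2 and 3.26 under shNS on the scale of all counts, 0.43 and 1.14 with TMM, 0.43 and 1.12 with DESeq2 size factors, 5.34 and 5.09 on miRNA hairpins, and 0.022 and 0.0040 on all tRNA counts. For shDis3l2 over shNS in cells the 0.38 became 0.32, 0.30, 0.54 and 0.019 in that order, and in vesicles the -0.08 became -0.39 and -0.39 and reversed to 0.78 and 0.037. These scales moved the median of all features in vesicles over cells by -2.36, -2.36, 2.54 and -2.77 under shDis3l2 and by -2.12, -2.14, 1.84 and -3.25 under shNS. They moved it by -0.06, -0.08, 0.16 and -0.36 for the labels in cells and by -0.31, -0.30, 0.86 and 0.12 in vesicles. The 6 isotypes held most tRNA counts of each library. On all tRNA counts their sum is therefore set mostly against itself and could rise little.

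Counts of members at least 2-fold apart moved too. For these counts the share over all features was taken only on the scale of all counts with the minimum of 100. Higher in vesicles under shDis3l2 (28 reported) were 14 on the tRNA total and 43 with a count minimum of 10 or 1; lower (2) were 4 with TMM, 4 with DESeq2, 1 on miRNA and 6 on the tRNA total. Under shNS the higher (26) were 17 with TMM, 17 with DESeq2, 10 on the tRNA total, 41 with a minimum of 10 and 43 with 1, and the lower (2) were 8 on the tRNA total. For the labels in cells the higher (1) were 4 on miRNA and 0 on the tRNA total, and the lower (1) were 2 with TMM, DESeq2 or a minimum of 10 or 1, 3 on the tRNA total and 0 with a minimum of 1000. In vesicles the higher (5) were 3 with TMM, DESeq2 or a minimum of 1000 and 20 on miRNA, and the lower (1) were 2 with TMM, DESeq2 or a minimum of 1 and 0 on miRNA. Called for compartment were 24 by DESeq2 and 20 by edgeR with a minimum of 10, against 0. A lower minimum tests more genes; other causes were not tested. Every other alternative run left the counts within 1.5 times.

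Replicates could not be paired by number because each group has 1 library, and for the same reason none was left out. Pairing by label was possible, and the additive fit compared vesicles with cells within each label. Depth limits Gly-ACC and the 20 genes under 100 counts most.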
